A study of Trichosurus vulpecula with 6 samples.

Results

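The region examined here lies between the outermost of the single nucleotide variants (SNVs) that mark coat colour in brushtail possums. It runs from 97105906 to 104107069 on chromosome 3 of the possum reference assembly mTriVul1.pri and contains ASIP, the gene of the agouti signalling protein. Members were all assembled transcripts on chromosome 3 that overlapped this interval, without the 16 forward-strand transcripts that overlapped ASIP (100433600 to 100484750). They numbered 1137 of the 274079 transcripts assembled in the series, and grouping by exon overlap on the same strand gave 113 loci of 32890. The rule used position and strand, not a difference between the colours, although a transcript had to be assembled from enough reads to be counted. RNA was sequenced from ear punch skin of 6 adult female possums, 3 with grey and 3 with black coats. The labels number the possums within each colour and name no treatment. Libraries were strand-specific and enriched for poly(A) RNA, and transcripts were assembled in each library separately.

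ASIP antagonises α-MSH at MC1R on melanocytes and so switches pigment from eumelanin to pheomelanin. Its neighbours matter because the order RALY, EIF2S2, ASIP, AHCY, ITCH is shared with other mammals. In mice, a deletion that removes Raly and Eif2s2 places agouti under the Raly promoter and gives yellow fur, and an inversion that breaks both agouti and Itch gives dark fur. RALY is a nuclear RNA-binding protein, EIF2S2 is the β subunit of the initiation factor that brings the initiator tRNA to the ribosome, AHCY hydrolyses S-adenosylhomocysteine, and ITCH is an E3 ubiquitin ligase. The question was which transcripts this interval gives in skin, and whether any differed between the coat colours.

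Depth, taken as aligned bases, ranged from 4.17 to 10.2 gigabases per library, and the shallowest was grey replicate 1. The libraries held 160, 197 and 201 member transcripts in grey replicates 1, 2 and 3 and 216, 185 and 178 in black replicates 1, 2 and 3. Black replicate 1 stood apart in its skeletal muscle markers, which summed to 2647 TPM (a transcript level scaled to transcript length and library size) against 2.94 to 4.68 TPM elsewhere. Levels of bulk tissue cannot tell fewer cells of a type from less RNA per cell. Of the melanocyte markers, all 5 had transcripts, summed to 61.8, 249 and 73.4 TPM in grey and 145, 94.9 and 246 TPM in black skin. None of the 4 keratins chosen to mark keratinocytes was found by symbol in the gene table used, so keratinocytes could not be checked.

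Transcripts were found along most of the interval. Assembled transcripts, ASIP included, spanned 56.6% of its length, and 50 loci lay on the forward and 63 on the reverse strand. RefSeq lists 100 genes there, 86 of them protein coding, and 78 of the 100 had a locus among the members. ASIP and LOC118841019, which lies inside it, were covered by the excluded transcripts, and 20 had no locus. Of the 113 loci, 71 were assembled in all 6 libraries and 28 in 1 library, and 75 reached the mean level of 1 TPM required for testing. The other 38 loci stayed below this level. The longest stretch without a transcript measured 499.9 kb and lay after MYBL2 (chr3:103202482-103702382), followed by 284.5 kb before the last locus of the interval. The first SNV fell within the span of COL23A1, a collagen gene with a mean of 0.52 TPM, as assembled in black replicate 3 (1.74 TPM). The last SNV lay 84.2 kb beyond the nearest member transcript, that of the pseudogene LOC118841916.

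**Figure D1:**
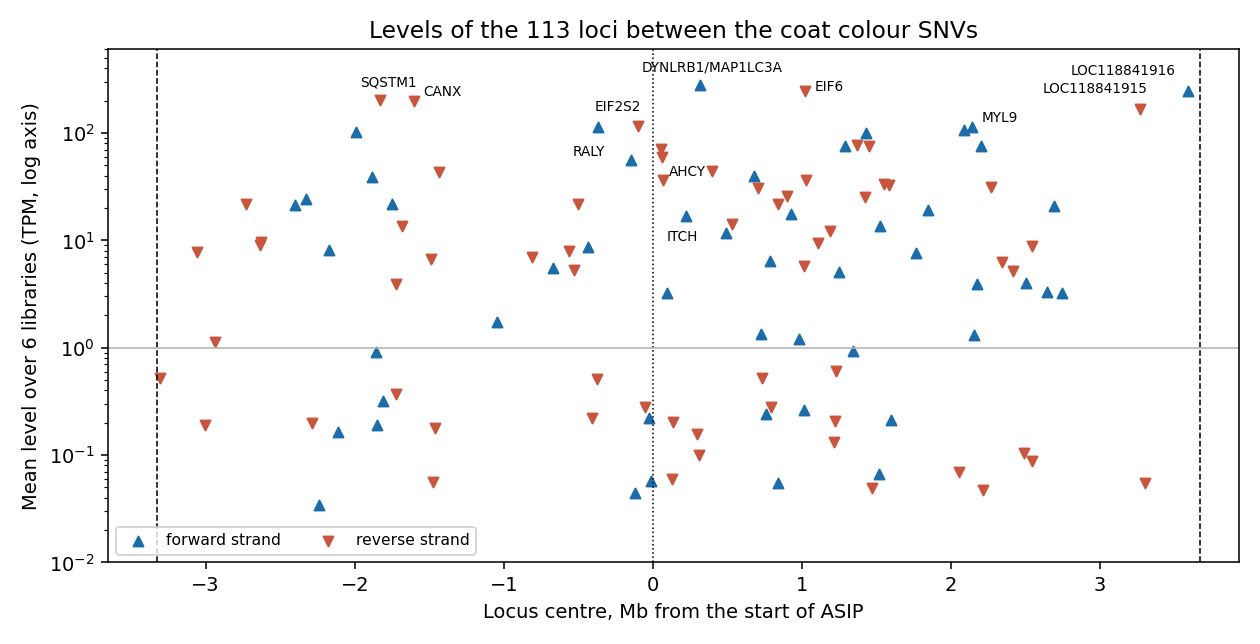
Mean level over 6 libraries (TPM, log axis) of each of the 113 loci by the distance of its centre from the start of ASIP in Mb; triangles point up for the forward and down for the reverse strand, dashed lines mark the outermost SNVs, the dotted line marks ASIP and the grey line 1 TPM. Levels reach 281 TPM at the joint DYNLRB1 and MAP1LC3A locus, and the loci nearest to ASIP on either side range from under 1 TPM to 115 TPM at EIF2S2.

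Together the member transcripts carried 0.305% to 0.350% of the TPM of a library. Their sum was 3053, 3481 and 3454 TPM in grey replicates 1, 2 and 3 and 3500, 3241 and 3333 TPM in black replicates 1, 2 and 3. The colours overlapped, and the difference of 28.6 TPM was smaller than the spread among possums (3330 ± 240 against 3358 ± 131 TPM, SD, n = 3, exact 2-sided permutation test, p = 0.80). With 3 possums against 3, the smallest p this test can give is 0.1. The sign of the difference turned in some of the alternatives tried.

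The 10 loci of highest mean level carried 53.5% of the interval's TPM. First was a joint locus of DYNLRB1, a dynein light chain, and MAP1LC3A, a protein of the autophagosome membrane, at 267, 325 and 239 TPM in grey and 275, 286 and 295 TPM in black skin. This rank is that of 2 genes summed. Transcripts from the main DYNLRB1 start held 164 to 210 TPM and those from the main MAP1LC3A start 70.8 to 112 TPM across libraries. LOC118841916 had a mean of 247 TPM and LOC118841915 one of 168 TPM. Both are single-exon loci at the far end of the interval, the first a pseudogene and the second protein coding in RefSeq, and single-exon copies can share reads with a parent gene elsewhere, so their levels are uncertain. EIF6, which keeps ribosomal subunits apart, had a mean of 246 TPM, the autophagy receptor SQSTM1 one of 202 TPM and the endoplasmic reticulum chaperone CANX one of 197 TPM. EIF2S2, the ESCRT-III subunit CHMP4B, the myosin light chain MYL9 and the scaffold protein DLGAP4 followed at 115, 113, 113 and 106 TPM. None of these 10 loci separated the colours.

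RALY lay 103.6 kb before ASIP on the forward strand (chr3:100245835-100330012 with all its transcripts). That end came from 1 transcript of 0.89 TPM in black replicate 1, and all other RALY transcripts ended by 100305488. The level of RALY was 54.1, 56.5 and 44.6 TPM in grey replicates 1, 2 and 3 and 66.6, 56.5 and 56.3 TPM in black replicates 1, 2 and 3. Black replicate 1 was highest and grey replicate 3 lowest, and the remaining 4 lay close together. The means of 51.7 ± 6.32 and 59.8 ± 5.89 TPM (SD, n = 3) differed by 8.06 TPM, less than the range within either colour (exact 2-sided permutation test, p = 0.30), and the log2 difference was 0.21 with a 95% interval from −0.18 to 0.59 (limma). It was 0.11 without grey replicate 3 and 0.13 without black replicate 1.

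EIF2S2 (reverse strand, chr3:100322504-100341841) was assembled as 1 isoform of 9 exons in every library. It reached 107, 103 and 131 TPM in grey and 132, 112 and 107 TPM in black skin, so the colours covered nearly the same range. The log2 difference was 0.042, its sign turned in some alternatives, and the exact 2-sided permutation test gave p = 0.60.

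AHCY, on the far side of ASIP, was broken into 3 reverse-strand loci in every library, and no assembled transcript joined them. The 3′ piece (chr3:100490966-100493283, 2 exons) reached 79.3, 51.1 and 75.6 TPM in grey and 71.4, 74.3 and 78.4 TPM in black skin. Only grey replicate 2 was well below the others, and the exact 2-sided permutation test gave p = 0.90. Without that library the sign of the log2 difference turned from 0.14 to −0.053. The middle piece (chr3:100493598-100498117) reached 55.3, 58.9 and 60.5 TPM in grey and 55.8, 59.3 and 70.4 TPM in black skin (exact 2-sided permutation test, p = 0.60). It had 5 exons in grey skin and in black replicate 1. In black replicates 2 and 3, 93.1% and 89.8% of its TPM came from transcripts of 4 exons that ended in the exon with the acceptor at 100494720, a last exon in no other library. The 5′ piece (chr3:100500420-100508581) reached 34.4, 34.7 and 43.1 TPM in grey and 37.2, 32.3 and 38.3 TPM in black skin (exact 2-sided permutation test, p = 0.80). Within every library the levels stood lowest in the 5′ piece, and in 5 of 6 libraries they stood highest in the 3′ piece.

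ITCH (forward strand, chr3:100576425-100736371) was the lowest of the neighbours, with 16.7, 18.9 and 17.4 TPM in grey and 15.8, 17.6 and 15.8 TPM in black skin. Its 6 values lay within a factor of 1.19, and the log2 difference of −0.098 came with p = 0.30 in the exact 2-sided permutation test. Without grey replicate 2 it was −0.051. For all the neighbours, then, the ranges of the colours overlapped.

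**Figure D2:**
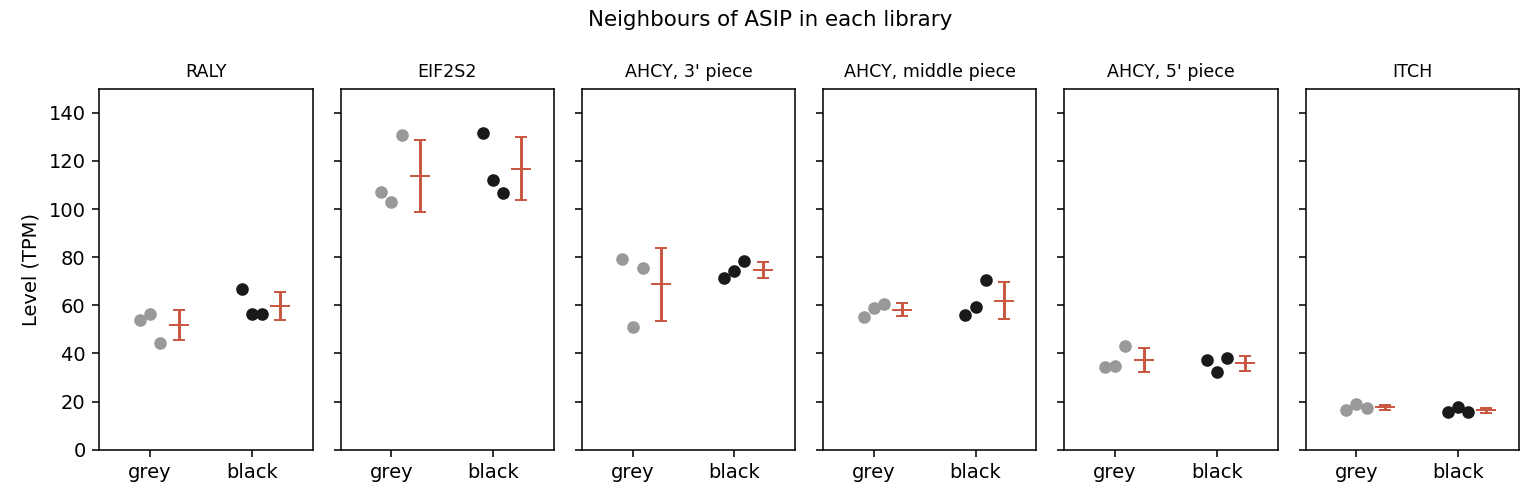
Level in TPM of RALY, EIF2S2, the 3 assembled pieces of AHCY and ITCH in each library; points are the 3 grey and 3 black possums in replicate order, and red marks are the mean ± SD. The ranges of grey and black skin overlap in every panel, and ITCH stays between 15.8 and 18.9 TPM.

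RALY was the neighbour with the most isoforms, 35 assembled transcripts over the 6 libraries. Its leading first exon ended at 100246254 and gave 98.3%, 94.1% and 95.1% of its TPM in grey and 96.0%, 89.7% and 94.7% in black skin (exact 2-sided permutation test, p = 0.50). In all libraries transcripts could include or skip an exon of 48 nt (chr3:100295775-100295822) and one of 162 nt (chr3:100296271-100296432). The 48 nt exon was included in 27.0%, 17.8% and 20.6% of RALY TPM in grey and 12.9%, 19.6% and 27.5% in black skin. The 162 nt exon was included in 16.8%, 13.8% and 10.6% in grey and 15.0%, 21.4% and 12.5% in black skin. Neither exon separated the colours. These shares are the assembler's division of reads among isoforms, not counts of junction reads.

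The end of RALY also varied. Last exons started at 100302457, 100302555 or 100303834 in every library. The farthest start gave 56.7%, 48.1% and 66.0% of RALY TPM in grey and 58.3%, 53.5% and 57.8% in black skin. The nearest gave 19.8% to 29.4% and the middle one 12.8% to 23.7% across libraries, and the colours overlapped for all 3. In black replicate 1, one RALY transcript of 0.89 TPM ran on to an exon at chr3:100329743-100330012, inside an intron of EIF2S2 on the other strand. No forward-strand transcript joined RALY to ASIP.

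**Figure D3:**
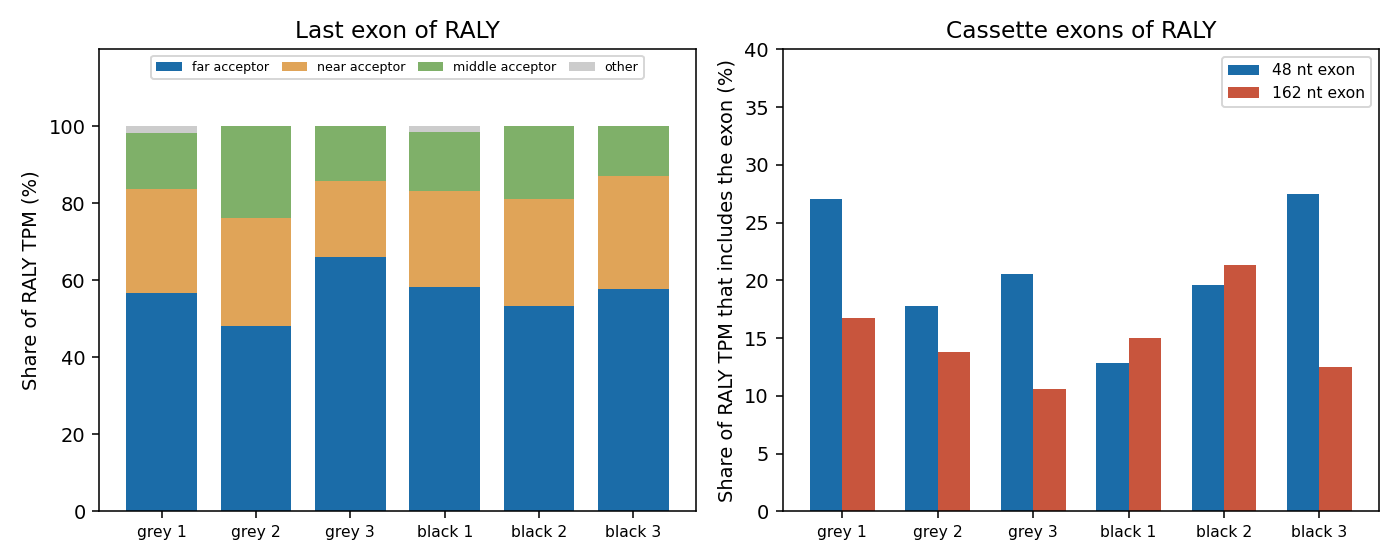
Share of RALY TPM in each library (percent) by the acceptor of the last exon (left, stacked; near, middle and far are 100302457, 100302555 and 100303834) and by inclusion of the 48 nt and 162 nt cassette exons (right). The far acceptor gives 48.1% to 66.0% in every library, and neither panel separates the 3 grey from the 3 black possums.

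EIF2S2 had 1 first exon, in every library. The 5′ piece of AHCY began with an exon ending at 100508398 in all 6 libraries. The first exons of the middle and 3′ pieces lie at breaks in the assembly and were not taken as starts of the gene. At ITCH the first exon ending at 100576502 gave 100%, 88.0% and 100% of TPM in grey replicates 1, 2 and 3 and 100%, 73.1% and 0% in black replicates 1, 2 and 3. Black replicate 3 decided most of this contrast, since its ITCH transcript started at the second exon. The difference was −38.3 percentage points (exact 2-sided permutation test, p = 0.40) and −9.44 points without black replicate 3. A second first exon at chr3:100595393-100595435 was assembled in black replicate 2 at 4.73 TPM.

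The span between EIF2S2 and ASIP held 3 loci, none of which RefSeq names. The first was a reverse-strand locus of 2 exons (chr3:100378824-100382441), at 1.67 TPM in black replicate 2. The second was a forward-strand locus of up to 3 exons (chr3:100389490-100424530), at 1.32 TPM in the same library and ending 9.10 kb before the first exon of ASIP. The third was a forward-strand locus of 2 exons (chr3:100421685-100422215), at 0.35 TPM in black replicate 3. All 3 were assembled in a single library and were listed at 0 in the other 5, at mean coverages of at most 7.90 per exon, so a comparison of colours is not possible at this depth. No reverse-strand transcript was assembled over ASIP in any library. The authors had removed opposite-strand reads of a contaminating amplicon before assembly.

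For the comparison of levels, limma was run on log2(TPM + 1) over the 17749 loci of the series that reached this level, and p-values were adjusted over all of them. In the interval 0 of 75 loci passed an adjusted p of 0.05, against 7 (0.0394%) of all loci. At an unadjusted p of 0.05 the interval held 1 locus in either direction, against 2.53% of all loci. It was lower in black skin (1.15% of all loci), and 0 of 75 were higher (1.38% of all loci). The median log2 difference was −0.018 in the interval and 0.037 over all loci. Differences within ±0.5 were found for 69 of 75 loci (92%), against 83.4% of all loci. The loci of the interval had a median level of 20.9 TPM against 12.1 TPM over all loci and a median SD within colours of 0.29 against 0.35 on the log2 scale. Every black library lay above every grey one at 1 of 75 loci, against 4.02% of all loci, and below at 3 of 75, against 2.33%.

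**Figure D4:**
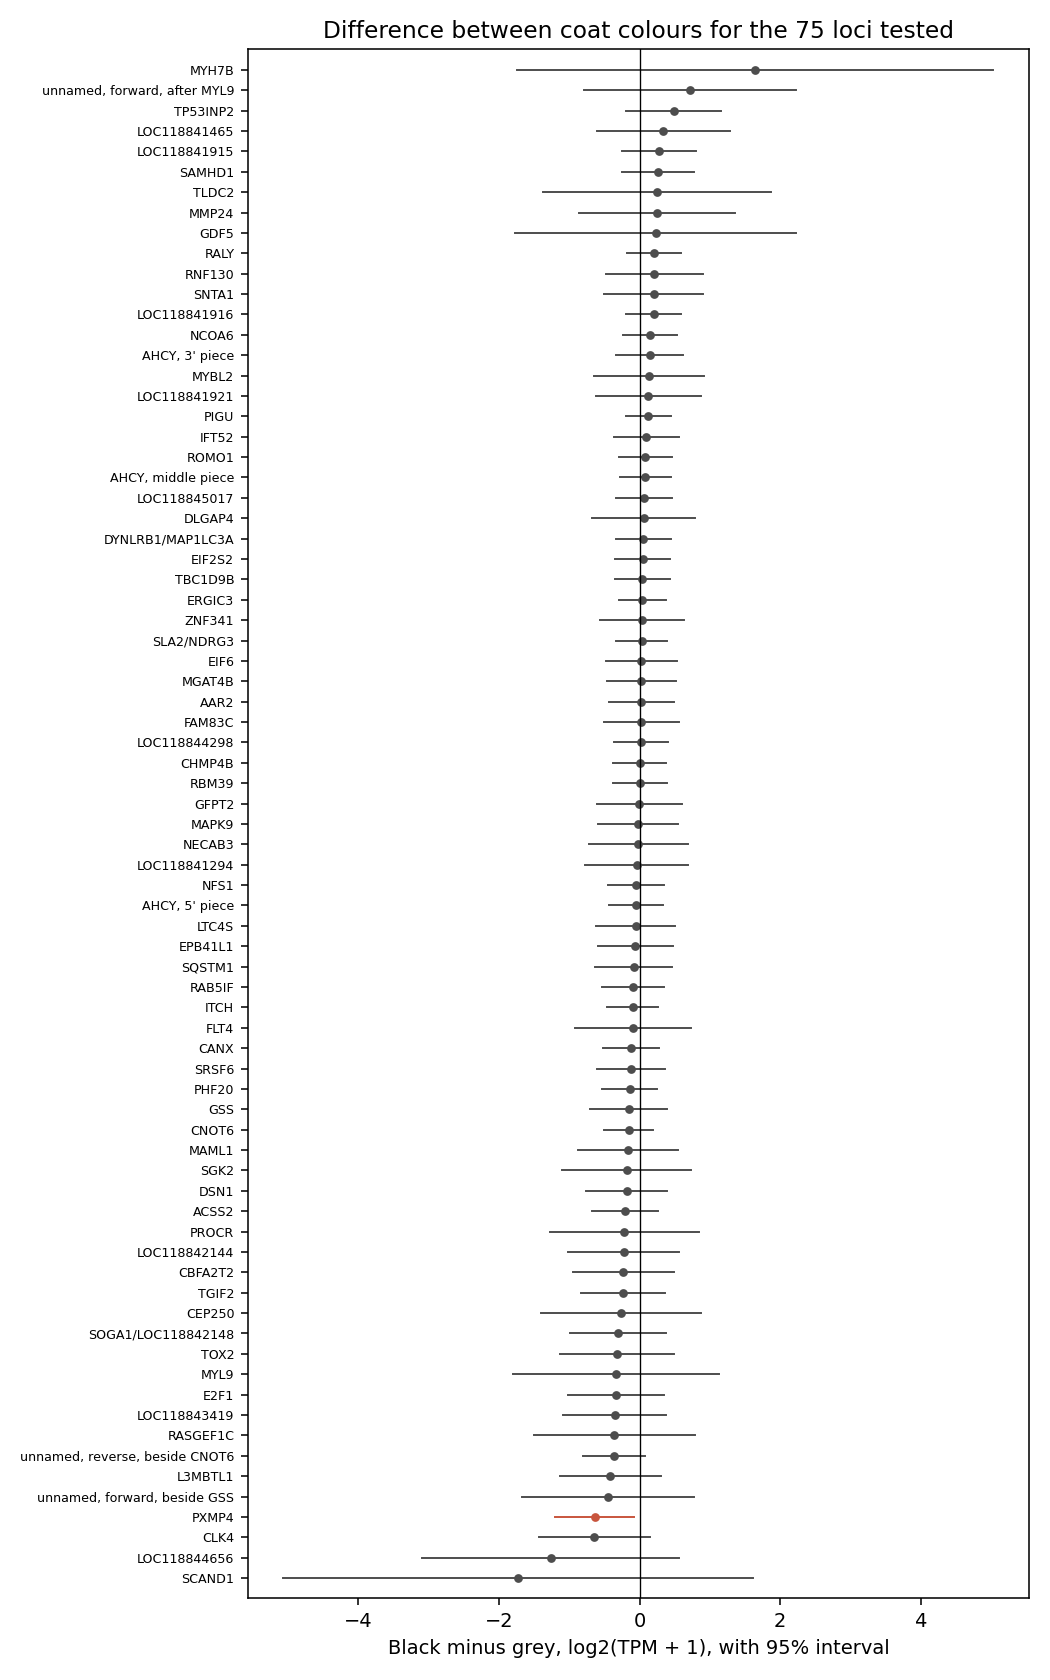
Black minus grey difference on the log2(TPM + 1) scale with its 95% interval (limma) for the 75 loci tested, ordered by size. The interval of PXMP4 alone (red) leaves out 0, and the widest belong to SCAND1 and MYH7B, each with 1 library far from the others.

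The locus with the smallest p was PXMP4, a peroxisomal membrane protein (reverse strand, chr3:99921789-99942501). It reached 21.6, 32.9 and 25.5 TPM in grey and 14.9, 21.2 and 14.2 TPM in black skin, so the highest black library lay just below the lowest grey one. The log2 difference was −0.64 ± 0.23 (SE) with an adjusted p of 1.00 (limma, 0.030 unadjusted). CLK4, a kinase of SR splicing factors, reached 11.2, 12.1 and 6.11 TPM in grey and 4.72, 4.64 and 8.29 TPM in black skin (−0.64 ± 0.33 SE, adjusted p of 1.00, limma). TP53INP2, which acts in autophagosome formation, was highest in black replicate 1 at 19.8 TPM, the library with muscle markers, and between 7.85 and 11.5 TPM elsewhere. The log2 difference was 0.48 ± 0.28 (SE) and 0.21 without that library. The part of the muscle markers in this difference was not tested.

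Second in order of p, between PXMP4 and CLK4, was a locus that RefSeq does not name. It lay on the reverse strand between CNOT6 and LOC118842144 (chr3:97798309-97799187), and its single transcript in each library had 2 exons. The intron between them ran from the same donor (97799061) to the same acceptor (97798534) in all 6 libraries. The spliced length was 324 to 352 nt. Its level was 10.04, 9.42 and 11.4 TPM in grey and 6.71, 7.92 and 8.63 TPM in black skin, so every black library lay below every grey one. The log2 difference was −0.37 ± 0.18 (SE) with an adjusted p of 1.00 (limma). It was the only one of 30 unnamed loci assembled in all 6 libraries. LOC118842144, on the same strand, had its 3′ end at 97800035 and a mean of 9.58 TPM, beside 9.02 TPM for the unnamed locus. Whether the unnamed locus is a detached piece of that gene was not tested. LOC118844656, a long non-coding RNA, reached 10.7, 7.57 and 5.002 TPM in grey and 6.26 and 5.02 TPM in black replicates 1 and 2, and was listed at 0 in black replicate 3. All its grey transcripts were spliced, whereas those of black replicates 1 and 2 had a single exon. The grey libraries did not share a first donor, which was 101449357 in grey replicates 1 and 2 and 101449806 in grey replicate 3. How many of all loci show such a split in splicing was not counted. The log2 difference of LOC118844656 was −1.26 and became −0.36 without black replicate 3.

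The other loci at which the colours did not overlap were CNOT6 and PIGU, picked out after their values were seen. CNOT6, a deadenylase of the CCR4-NOT complex, reached 23.8, 23.7 and 22.4 TPM in grey and 19.2, 21.2 and 21.9 TPM in black skin. PIGU, a subunit of the GPI transamidase, reached 40.9, 40.8 and 44.7 TPM in grey and 46.1, 45.4 and 46.6 TPM in black skin. Both differences were small, −0.16 and 0.12 on the log2 scale, and neither had an unadjusted p under 0.05 (limma).

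Grouped by function, few loci of the interval came near the threshold. Of 6 tested loci for RNA processing and translation (RALY, RBM39, CLK4, EIF2S2, EIF6 and AAR2), 0 passed in either direction and the median log2 difference was 0.025. Of 6 loci listed under methionine, glutathione and mitochondrial metabolism, 1 had an unadjusted p under 0.05, against 2.53% of all loci, and the median was −0.10. That locus was PXMP4, whose protein is peroxisomal, and none of the other members (AHCY, GSS, ACSS2, NFS1 and ROMO1) passed. Of 4 loci for ubiquitin, autophagy and membrane sorting, 7 for the cytoskeleton and contraction, 8 for transcription and the cell cycle, 5 for signalling and the cell surface and 2 for the endoplasmic reticulum and secretion, 0 passed at an unadjusted p of 0.05 (limma). Their medians were 0.029, 0.054, −0.21, 0.23 and 0.082, beside 0.037 over all loci.

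Some loci varied widely between possums of the same colour. SCAND1, a SCAN domain protein, reached 38.4, 34.4 and 43.4 TPM in grey and 41.3 and 39.6 TPM in black replicates 1 and 3 but was listed at 0 in black replicate 2. MYH7B, a slow myosin heavy chain, reached 38.0 TPM in black replicate 1 and 0.28 TPM in grey replicate 3 and was listed at 0 in the other 4. Black replicate 1 was also the library with the skeletal muscle markers (4 of 5 markers in the gene table, all 4 with transcripts), whose part in the MYH7B value was not tested. MYH7B is itself a muscle myosin.

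GDF5, a growth factor of joints and cartilage, reached 26.7, 10.5 and 1.89 TPM in grey and 5.07, 16.4 and 12.9 TPM in black skin. The cartilage markers COL2A1 and ACAN summed to 358, 168 and 199 TPM in grey and 136, 190 and 172 TPM in black skin, highest in the library where GDF5 was highest. MYL9 reached 109, 211 and 58.0 TPM in grey and 40.1, 112 and 147 TPM in black skin, and the 3 smooth muscle markers summed to 472, 1264 and 509 TPM and to 654, 598 and 866 TPM. Grey replicate 2 had the highest value of both. The lowest values of GDF5 and MYL9 did not fall in the libraries with the lowest sums. GDF5 was lowest in grey replicate 3, where the cartilage sum of 199 TPM was below that of grey replicate 1 alone. The 2 cartilage markers differed in grey replicate 3, where COL2A1 was at its lowest (6.90 TPM) and ACAN stood at 192 TPM. Both were highest in grey replicate 1, at 101 and 257 TPM. MYL9 was lowest in black replicate 1, where the smooth muscle sum of 654 TPM exceeded those of grey replicates 1 and 3 and black replicate 2. The part of these markers in the GDF5 and MYL9 values was not tested.

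**Figure D5:**
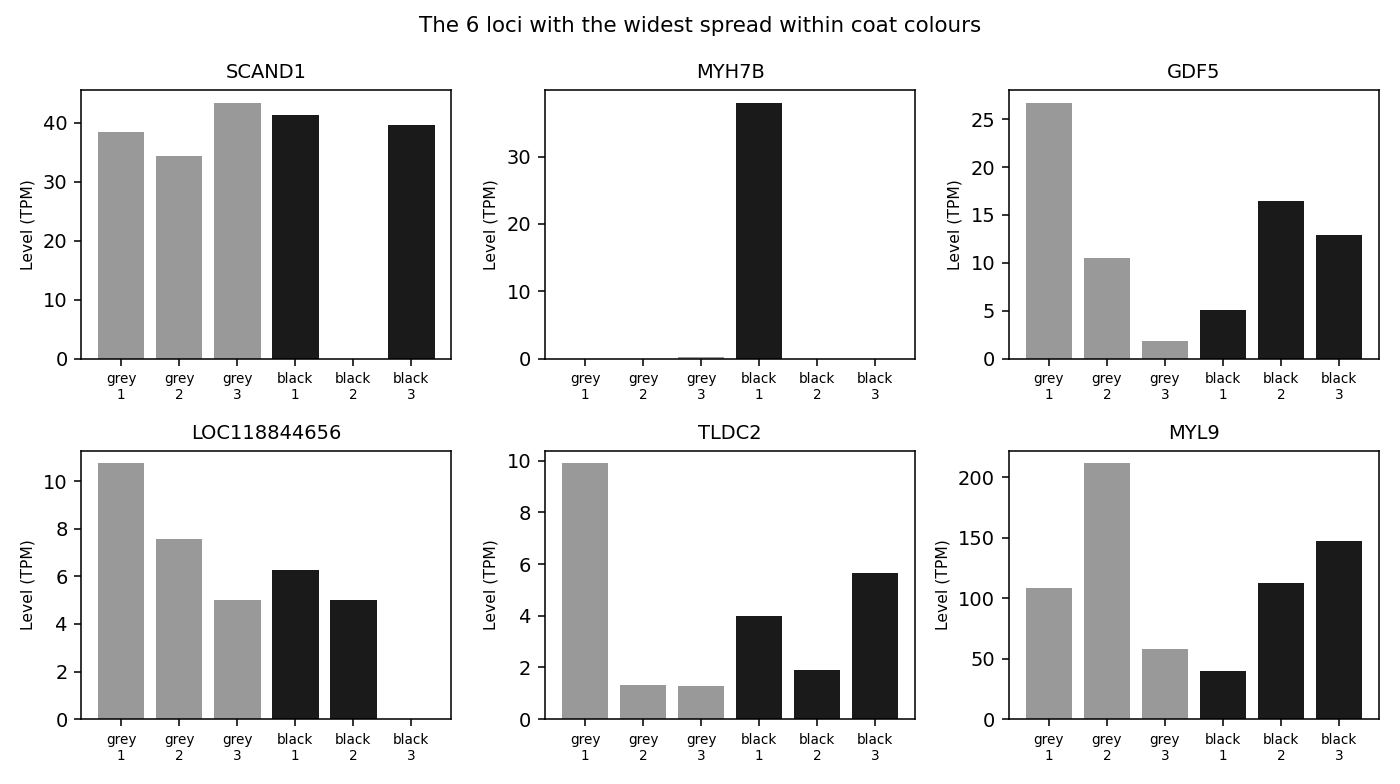
Level in TPM of the 6 loci with the widest spread within colours in each of the 3 grey and 3 black libraries, each panel on its own axis from 0. MYH7B is near 0 outside black replicate 1, SCAND1 is listed at 0 in black replicate 2, and LOC118844656 is listed at 0 in black replicate 3.

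The introns of the interval were described by the libraries in which each was assembled, with no test. Of 1126 introns in the interval, 623 (55.3%) were assembled in all 6 libraries, against 49.3% of all introns, and 289 (25.7%) in 1 library, against 27.7%. Single-exon transcripts made up 51 of 1137 (4.49%), against 8.89% of all. An intron assembled in every library of one colour and in none of the other was found 3 times for grey (0.167% of all introns) and 1 time for black (0.25% of all introns).

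The black intron belonged to CBFA2T2, a transcriptional corepressor, and followed its first donor at 99680029 and measured 128230 nt (chr3:99680030-99808259). Transcripts with it held 0.80, 1.11 and 0.64 TPM in black replicates 1, 2 and 3, or 16.2%, 25.0% and 11.9% of the locus. The same donor was used in 2 grey libraries as well, where it was spliced elsewhere. The grey introns lay in SCAND1 and TLDC2. At SCAND1 an intron of 154 nt (chr3:102022270-102022423) was removed in transcripts of 38.4, 6.38 and 43.4 TPM in grey skin, while black replicates 1 and 3 had single-exon transcripts across it, at 41.3 and 39.6 TPM. Grey replicate 2 had both forms, the unspliced one at 28.0 TPM, and black replicate 2 had no transcript. The first exon of the spliced form measured 48 to 90 nt and had a mean coverage of 0.87 to 5.88, against 26.9 to 243 in its second exon. At TLDC2 introns of the grey libraries (chr3:102934119-102936702 and chr3:102936803-102941009) led from an upstream first exon, in transcripts of 0.73, 0.70 and 1.27 TPM.

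First exons differed between libraries at many loci, and 38 of the 75 tested loci had at least 2 donors that each appeared in at least 2 libraries. CANX had most, with 6, followed by 6 loci with 4 each, of which the 4 of highest mean level are described. At CANX 1 donor gave 64.4% to 88.0% of its TPM in every library. The DYNLRB1 and MAP1LC3A locus had 4, of which the DYNLRB1 start (donor 100743616) gave 64.5% to 69.7% and the MAP1LC3A start (donor 100757675) gave 26.9% to 34.4%. These genes had separate starts and were joined by read-through transcripts of 9.59 TPM in black replicate 1 and 4.48 TPM in grey replicate 3. GSS, the glutathione synthetase, used its main donor (101158151) for 100%, 100% and 93.4% of TPM in grey and 72.2%, 77.9% and 23.3% in black skin. The colours did not overlap in this share, but how many of all loci show such a split was not counted. These are values chosen for having many starts, and the other starts of GSS lay inside the gene. DSN1, a kinetochore protein, had no donor in more than 4 libraries, and its donors 102787999 and 102787886 were not assembled together in any library. At CBFA2T2 no donor was assembled in all 6 libraries.

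Other transcripts that joined RefSeq genes came from SOGA1 and LOC118842148, which shared a locus with joint transcripts of up to 4.02 TPM in 5 libraries, and from SLA2 and NDRG3, joined once, at 1.12 TPM in grey replicate 3.

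Exons of opposite strands overlapped in 8 pairs of loci. The lower member of each pair by mean level was counted as antisense, which gave 8 loci (7.08% of the 113, against 6.79% of all loci). They carried 2.12%, 1.15% and 1.74% of the interval's TPM in grey and 2.56%, 1.30% and 1.81% in black skin (exact 2-sided permutation test, p = 0.70). Most overlaps were at the starts or at the ends of both members. NFS1, a cysteine desulfurase, and ROMO1, a mitochondrial inner membrane protein, started 7 bases into each other, at mean levels of 25.6 and 101 TPM. PROCR, the endothelial protein C receptor, and LOC118844298 shared 52 bases near their starts, but their first exons did not overlap each other. PROCR started there in grey replicate 1 and black replicates 1 and 3, and farther along in the other libraries.

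The tail-to-tail pairs were MYH7B with LOC118841921 (2352 bases), TLDC2 with SAMHD1 (499 bases), LTC4S with MGAT4B (99 bases) and an unnamed forward-strand locus (chr3:101444112-101448236) with LOC118844656 (1957 bases). LOC118841921 was assembled in all libraries at 18.0, 17.7 and 25.4 TPM in grey and 34.5, 16.0 and 19.2 TPM in black skin, and was highest in black replicate 1, where MYH7B was assembled at 38.0 TPM. The unnamed partner of LOC118844656 was assembled only in black replicate 3 at 1.58 TPM, the library in which LOC118844656 was listed at 0.

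The start of GSS overlapped by 9 bases with an unnamed forward-strand locus (chr3:101158366-101160639) that ran away from it. This locus was spliced, with up to 3 exons, in 5 libraries, at 2.19, 0.95 and 1.71 TPM in grey replicates 1, 2 and 3 and 1.65 and 1.48 TPM in black replicates 2 and 3. Black replicate 1 had none and instead held a reverse-strand transcript of 3 exons (chr3:101159554-101170931, 3.11 TPM), whose last exon of 346 nt lay within exons of the forward-strand locus. Each library thus had a transcript on one of the strands and never on both.

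Unnamed loci were otherwise few and low. Of the 30, 21 were assembled in 1 library, 9 had a single exon and 3 reached a mean of 1 TPM. They carried 0.40%, 0.56% and 0.54% of the interval's TPM in grey and 0.58%, 0.59% and 0.48% in black skin (exact 2-sided permutation test, p = 0.50). Of the 30, 15 (50%) were assembled in black libraries alone, against 29.5% of the 13583 unnamed loci of the series, and 7 (23.3%) in grey libraries alone, against 32.6%. No test was made of this split. Grey replicate 1, the shallowest library, held 0 of the 21 that appeared once, against 2 and 5 in grey replicates 2 and 3 and 5, 6 and 3 in black replicates 1, 2 and 3. Besides those described, the highest was a single-exon locus that began just after MYL9 on its strand (chr3:102586250-102590096), at 2.99 TPM in grey replicate 2 and 1.65, 1.34 and 1.88 TPM in black replicates 1, 2 and 3. Grey replicates 1 and 3 were listed at 0 there, and grey replicate 2 was also the library with most MYL9. The remaining unnamed loci had means of 0.034 to 0.92 TPM.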

How the data were processed

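RNA-seq of ear punch skin from 3 grey and 3 black possums was analysed from 1 transcript file per library. The paper, the processing notes and the file headers name Trim Galore (version 0.6.10) for trimming, HISAT2 (version 2.2.1) for mapping, the removal of amplicon reads, and an annotation-guided StringTie run (version 2.2.0) on every library. The values the authors deposited are TPM, FPKM and coverage per transcript, other than counts of reads, which a count test would need. Aligned bases were derived by dividing coverage by FPKM, and they limit which low transcripts could be assembled.

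Transcripts were joined into loci by same-strand exon overlap and named by RefSeq gene spans of the same build, which give neither exons nor strand. A match needed at least 100 exonic bases of the transcript in the gene's span. It also needed at least 0.5 of the joint span shared, or 80% of the gene held by the transcript. Spliced transcripts could instead lie 80% inside the gene. Loci were named on the strand with most TPM, and single-exon transcripts inside a gene could stay unnamed. Level is summed TPM. Loci whose mean reached 1 TPM were fitted with limma (version 3.58.1, R version 4.3.3, eBayes with trend) on log2(TPM + 1), which understates changes of low loci. Adjustment followed Benjamini and Hochberg at 0.05, and samples were not paired. For single values, TPM or shares were permuted exactly over the 20 assignments of the 6 libraries (2-sided). The fit was tested on simulated data. A locus listed at 0 may have had too few reads for assembly.

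Named loci were the ASIP neighbours, the 10 highest, the 5 of smallest p, opposite-strand pairs, unnamed loci, the 5 with most first donors (ties by mean level), joined transcripts and members of 7 functional lists, of which a part is printed. The members and lists were chosen with earlier results of these data known. Figures used Python (version 3.11.15) and matplotlib (version 3.10.9).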

Additional observations from a re-analysis of the deposited data

How the results depend on the processing

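Under each of 14 alternatives, 0 loci of the interval passed the adjusted threshold (limma). The count over all loci, 7 as reported, ranged from 0 with a replicate block to 12 without a variance trend, with 3 at a mean of at least 5 TPM or without black replicate 1, 4 with no filter or with multi-exon transcripts only. The replicate numbers did not pair the samples (correlations −0.0062, 0.019 and −0.021), and the interval had 0 adjusted and 1 unadjusted calls with the block. The unadjusted count of 1 became 3 with multi-exon transcripts only, where LOC118844656 had a log2 difference of −3.08 and the smallest adjusted p was 0.16, and ranged from 0 to 2 when single libraries were left out (0 without grey replicate 2 or black replicate 1, 2 without grey replicate 3). The multi-exon setting removed all transcripts of LOC118844656 in black replicates 1 and 2 and of SCAND1 in black replicates 1 and 3. Every black library then stood at 0 for both loci. The cause of the other changes was not tested.

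Of the values tested singly, AHCY ranged from −0.053 (without grey replicate 2) to 0.26, and EIF2S2 from −0.046 (without black replicate 1; −0.024 without grey replicate 2) to 0.15, with −0.018 after quantile normalization. The summed TPM difference of 28.6 became −61.9 with multi-exon transcripts only and −82.9 with coverage in place of TPM (kilobases of coverage per aligned gigabase), and ranged from −110 (without grey replicate 1; −42.5 without black replicate 1) to 105. The antisense share difference of 0.22 percentage points ranged from −0.12 (without black replicate 1; −0.041 without grey replicate 2) to 0.51. The unnamed share difference of 0.051 points became −0.028 with transcripts of at least 1 TPM and ranged from 0.0015 (without grey replicate 1) to 0.087 (without black replicate 3). RALY, ITCH and the 5 loci of smallest p kept their direction under all 14. The filters, the variance trend and the block leave the estimate of a tested locus unchanged, so they could not turn its sign. For these loci, joining by at least 50 bases of exon overlap also gave the same estimates. So did multi-exon transcripts only, except at LOC118844656. The 5 loci were also chosen by their p in these same data. Depth of 4.17 to 10.2 gigabases limits assembly of loci near 1 TPM.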
